A study of Homo sapiens with 6 samples.

Results

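The vacuolar-type proton ATPase (V-ATPase) was followed through 10 of its genes: ATP6V1A, ATP6V1B2, ATP6V1C1, ATP6V1D, ATP6V1E1, ATP6V1F and ATP6V1H of the cytosolic V1 sector, ATP6V0A1 and ATP6V0D1 of the membrane V0 sector, and the accessory subunit gene ATP6AP1. They were taken by symbol from the 36884 genes of the deposited table, and all 10 passed the filter on low counts that left 13431 genes for testing. The cells were RPE1, an immortalized and non-transformed human line of retinal pigment epithelial origin, in which LATS1 and LATS2, the kinases that restrain YAP and TAZ in the Hippo pathway, had been inactivated with CRISPR-Cas9. Both groups carried this inactivation. One group received control siRNA and the other siRNA against MK5, the protein kinase encoded by MAPKAPK5, in each case for 48 h with a lipid transfection reagent, and each group held 3 libraries of RNA described as biological replicates. Whether the edited cells are 1 clone is not given in the sources used here, and unedited cells were not analysed here.

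The V-ATPase is a rotary motor that pumps protons into lysosomes, endosomes and the Golgi. Its V1 sector hydrolyses ATP in a ring of A and B subunits, a central stalk with subunits D and F turns the membrane-embedded ring of c-type subunits, and peripheral stalks of E and G subunits, held by C, H and the N-terminal part of subunit a, keep the motor from turning as a whole. Protons cross at the interface of subunit a and the c ring, and subunit d couples the ring to the central stalk. The pump acidifies lysosomes for their hydrolases, and its binding to the Ragulator complex links amino acid supply to the kinase complex mTORC1. In retinal pigment epithelium, lysosomes degrade the outer segments shed by photoreceptors. Many lysosomal genes, V-ATPase subunits among them, carry an E-box called the CLEAR element that is bound by transcription factors of the MiT/TFE family.

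The libraries held 27188074 to 28236773 counts. The siRNA target MAPKAPK5 had 35.6, 29.05 and 31.3 CPM in the controls (replicates 1, 2 and 3, the order kept throughout), against 17.4, 14.1 and 16.2 CPM with MK5 siRNA, a log2 fold change of −1.01 ± 0.14 (SE) with an edgeR adjusted p of 0.00169. CPM are counts scaled to a library total of 1000000 with TMM factors, and log2 fold changes are MK5 siRNA over control siRNA from edgeR's quasi-likelihood fit with n = 3 per group. Control replicate 1 stood apart from the other controls in many of the genes below, so results are also given without it, and without the first replicate of both groups, where that changes them. Of 11 retinal pigment epithelium markers 6 passed the filter, and 2 of these fell: PMEL from 2.04 to 0.546 CPM (log2 −1.89 ± 0.27; edgeR adjusted p = 0.00189) and MITF by 1.09 ± 0.14, with a median of −0.81 over the 6. OTX2 (32.4 and 34.8 CPM) did not pass, and markers of the mature epithelium were absent or nearly so (TTR at 0 in every library, RPE65, RLBP1 and TYR at means of at most 0.0246 CPM). The epithelial keratins KRT8 and KRT18 fell by 0.83 ± 0.18 and 0.74 ± 0.13 (edgeR adjusted p of 0.0104 and 0.00363), from 642 to 363 CPM and from 148 to 88.7 CPM. Of 4 mesenchymal markers tested COL1A1 rose by 1.83 ± 0.35 (edgeR adjusted p = 0.00605) and VIM, CDH2 and FN1 did not pass. Of 3 endothelial markers tested VWF and TEK fell, both from control means of at most 1.30 CPM. VWF had 2.76, 0.516 and 0.622 CPM in the controls, replicate 1 the highest. The part of these shifts in the results below was not tested. None of 5 leukocyte markers passed the filter, EPCAM and PECAM1 were at 0 in every library, and of the markers of osteoclasts and kidney intercalated cells, which use special V-ATPase isoforms, the 3 that passed the filter (CTSK, OSCAR and SLC26A4) fell with MK5 siRNA, by 1.85 to 2.71 on the log2 scale.

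With MK5 siRNA, 4 of the 10 V-ATPase genes rose, none fell and 6 did not pass (edgeR adjusted p under 0.05). ATP6AP1 rose 2.03-fold, ATP6V1F 1.72-fold, ATP6V0A1 1.68-fold and ATP6V1D 1.38-fold. The siRNA moved a large part of the transcriptome: 46.2% of all genes tested were called, 22.5% rising and 23.7% falling, so that the 4 of 10 that rose stand beside a background of 22.5%. The median log2 fold change was 0.33 over the 10 genes, 8 of them above 0, and 0.00 over all genes tested. In 5 of the 10 genes every MK5 siRNA library lay above every control library, against 30.6% of all genes, and in none did every MK5 siRNA library lie below, against 29.8%. The counts depend on control replicate 1: without it 6 of the 10 rose (background 32.3%), and with the first replicate of both groups left out 8 rose (background 37.9%), with none falling in either case. In bulk RNA these are relative levels, and fewer cells with a transcript cannot be told apart from less of it per cell.

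**Figure D1:**
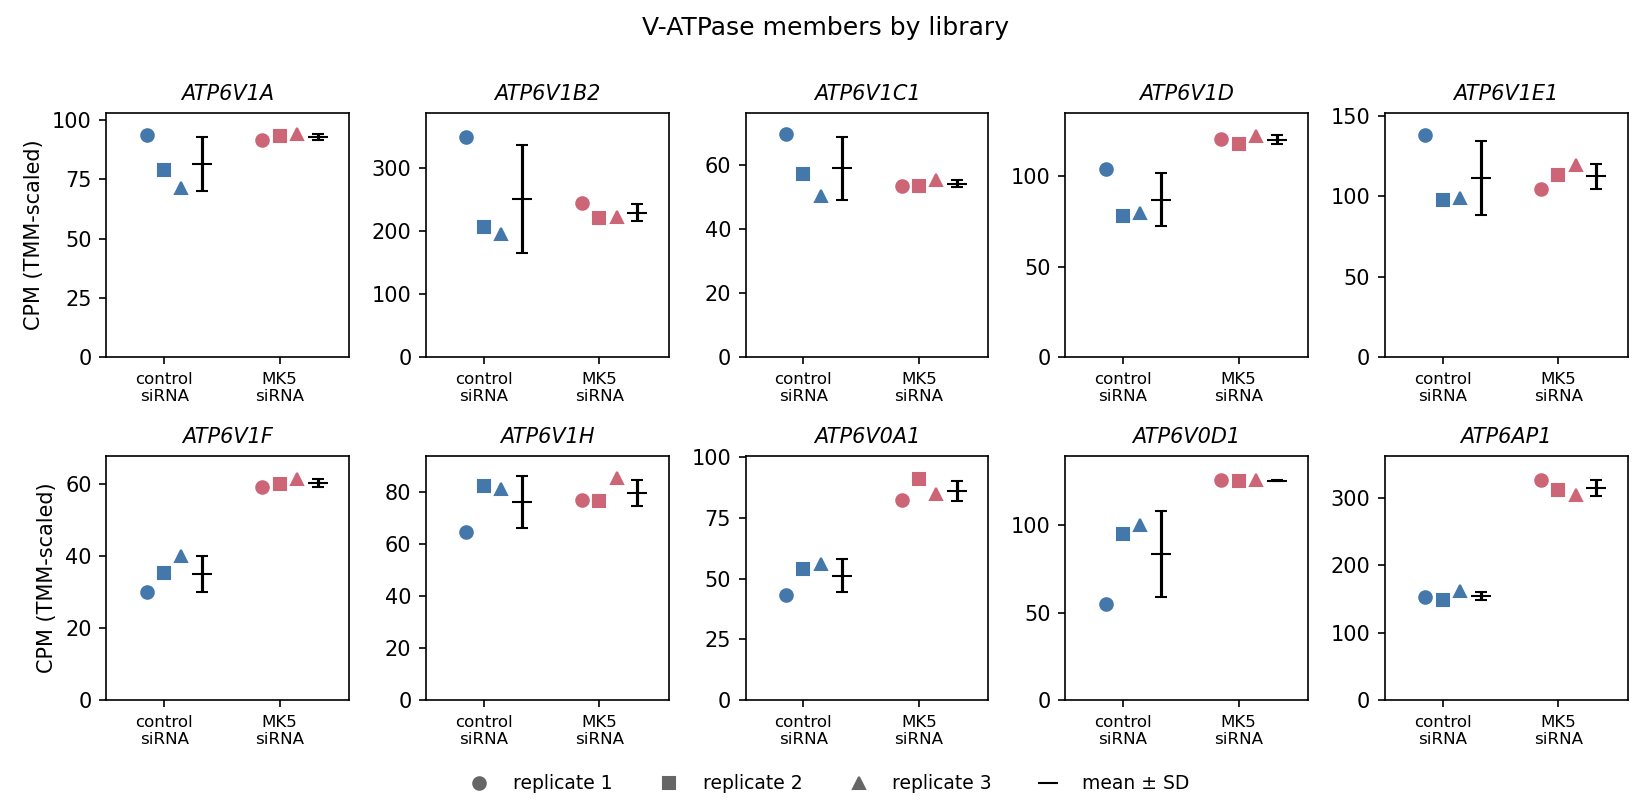
Level of each of the 10 V-ATPase genes in each library, in TMM-scaled CPM on a linear axis from 0, with the mean and SD of each group (n = 3). The MK5 siRNA libraries lie above all controls for ATP6V1D, ATP6V1F, ATP6V0D1, ATP6V0A1 and ATP6AP1, and control replicate 1 lies away from the other controls in most panels.

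Neither of the catalytic ring genes passed the test. ATP6V1A, which encodes the subunit that binds and hydrolyses ATP, had 93.9, 79.1 and 71.6 CPM in the controls and 91.7, 93.4 and 94.1 CPM with MK5 siRNA. Control replicate 1 lay inside the range of the MK5 siRNA libraries and the other controls below it. The log2 fold change was 0.19 ± 0.12 (95% interval −0.10 to 0.48; edgeR adjusted p = 0.240), and without control replicate 1 it was 0.31 ± 0.08 (edgeR adjusted p = 0.00791). ATP6V1B2, the widely expressed form of the other ring subunit, had 350, 206 and 195 CPM in the controls and 245, 221 and 221 CPM with MK5 siRNA. Its 3 MK5 siRNA libraries lay between control replicate 1 and the other controls. The log2 fold change of ATP6V1B2 was −0.13 ± 0.23 (95% interval −0.67 to 0.41; edgeR adjusted p = 0.672), with −0.51 in the first replicate pair and 0.10 and 0.18 in the second and the third, and it turned to 0.20 without control replicate 1 (edgeR adjusted p = 0.0556) and to 0.14 ± 0.06 without the first replicate of both groups (edgeR adjusted p = 0.0297).

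Both central stalk genes rose. ATP6V1D, the axle of the motor, stood at 104, 78.1 and 79.7 CPM in the controls and at 121, 118 and 123 CPM with MK5 siRNA. All MK5 siRNA libraries were above all controls, with control replicate 1 the nearest. ATP6V1D changed by 0.46 ± 0.13 (edgeR adjusted p = 0.0275). Leaving out any library other than control replicate 1 ended this call, with edgeR adjusted p from 0.0738 to 0.121, as did dropping the filter on low counts (0.0535), and without control replicate 1 the change was 0.61 ± 0.07 (edgeR adjusted p = 0.000148). ATP6V1F, which sits on the stalk beside subunit D, had 29.8, 35.1 and 40.01 CPM in the controls and 59.0, 59.99 and 61.2 CPM with MK5 siRNA. Its groups were far apart, with the lowest MK5 siRNA library above the highest control by more than the whole range of the controls. The log2 fold change was 0.78 ± 0.13 (95% interval 0.47 to 1.09; edgeR adjusted p = 0.00341), and the call held under every alternative run.

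One measurement stands beside the ATP6V1F result. In GENCODE release 29 (GRCh38) 187 of its 789 exon bases, 23.7%, are shared with KCP on the opposite strand, and since the strand setting of the counting is not given, reads of the pair cannot be told apart there. KCP had 10, 17 and 22 counts in the controls and 121, 413 and 420 with MK5 siRNA (log2 fold change 4.17 ± 0.55; edgeR adjusted p = 0.00145). Its level in MK5 siRNA replicate 1 was 4.41 CPM, against 14.4 and 14.1 CPM in the other MK5 siRNA libraries. ATP6V1F had 59.0 to 61.2 CPM across the same libraries. The part of KCP reads in the ATP6V1F rise was not tested. ATP6V1D shares 6.33% of its exon bases with EIF2S1 on the opposite strand, and the other 8 genes share 2.12% or less with any annotated gene.

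ATP6V1E1 of the peripheral stalks, and ATP6V1C1 and ATP6V1H that hold them, did not pass. ATP6V1E1 stood at 138, 97.7 and 99.0 CPM in the controls and at 104, 113 and 119 CPM with MK5 siRNA, so that the MK5 siRNA libraries again lay between control replicate 1 and the rest. Its log2 fold change was 0.01 ± 0.16 (95% interval −0.37 to 0.39; edgeR adjusted p = 0.964), whereas without the first replicate of both groups ATP6V1E1 stood at 0.25 ± 0.06 and was called (edgeR adjusted p = 0.00122). ATP6V1C1, the subunit that is released when V1 detaches from V0, had 69.5, 57.0 and 50.1 CPM in the controls and 53.3, 53.5 and 55.2 CPM with MK5 siRNA. The groups overlapped, and the log2 fold change of ATP6V1C1 was −0.12 ± 0.14 (95% interval −0.45 to 0.20; edgeR adjusted p = 0.489). ATP6V1H, the subunit that keeps detached V1 from hydrolysing ATP, had 64.8, 82.4 and 81.4 CPM in the controls and 77.1, 76.6 and 85.6 CPM with MK5 siRNA. Here control replicate 1 was the lowest library, and the log2 fold change was 0.07 ± 0.13 (95% interval −0.24 to 0.37; edgeR adjusted p = 0.691). For ATP6V1C1 and ATP6V1H no alternative run gave a call, and their intervals leave room for changes of up to about 0.45 on the log2 scale.

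In the membrane sector, ATP6V0A1, one of the proton-channel subunit forms, stood at 43.4, 54.1 and 56.0 CPM in the controls and at 82.5, 90.8 and 84.9 CPM with MK5 siRNA. The groups did not overlap. ATP6V0A1 changed by 0.75 ± 0.13 on the log2 scale (95% interval 0.45 to 1.05; edgeR adjusted p = 0.00357), and the call held under every alternative run. ATP6V0D1, the coupling subunit, had 55.2, 95.1 and 100 CPM in the controls and 126, 125 and 126 CPM with MK5 siRNA. Its groups did not overlap either, but control replicate 1 lay far below the other controls. For ATP6V0D1 the log2 fold change was 0.59 ± 0.22 and missed the threshold (edgeR adjusted p = 0.0644), whereas without control replicate 1 it was smaller and more even, 0.37 ± 0.07 (edgeR adjusted p = 0.00200). It was also called by DESeq2 (adjusted p = 0.0377), with no filter on low counts (0.0485) and without control replicate 3 (0.0489).

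ATP6AP1 encodes the accessory subunit also called Ac45, a glycoprotein that sits on the luminal side of V0 and takes part in assembly of the pump. It stood at 153, 149 and 161 CPM in the controls and at 327, 312 and 304 CPM with MK5 siRNA. Each group was tight and the groups were far apart. The log2 fold change of 1.02 ± 0.09 was the largest of the 10 genes and had the smallest standard error (95% interval 0.80 to 1.25; edgeR adjusted p = 0.000434), and the replicate pairs gave 1.09, 1.06 and 0.91. Control replicate 1 did not stand apart in this gene, and the call held under every alternative run. Across the 10 genes, control replicate 1 lay above both other controls in ATP6V1A, ATP6V1B2, ATP6V1C1, ATP6V1D and ATP6V1E1, and below both in ATP6V1F, ATP6V1H, ATP6V0D1 and ATP6V0A1. What sets this library apart was not tested.

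**Figure D2:**
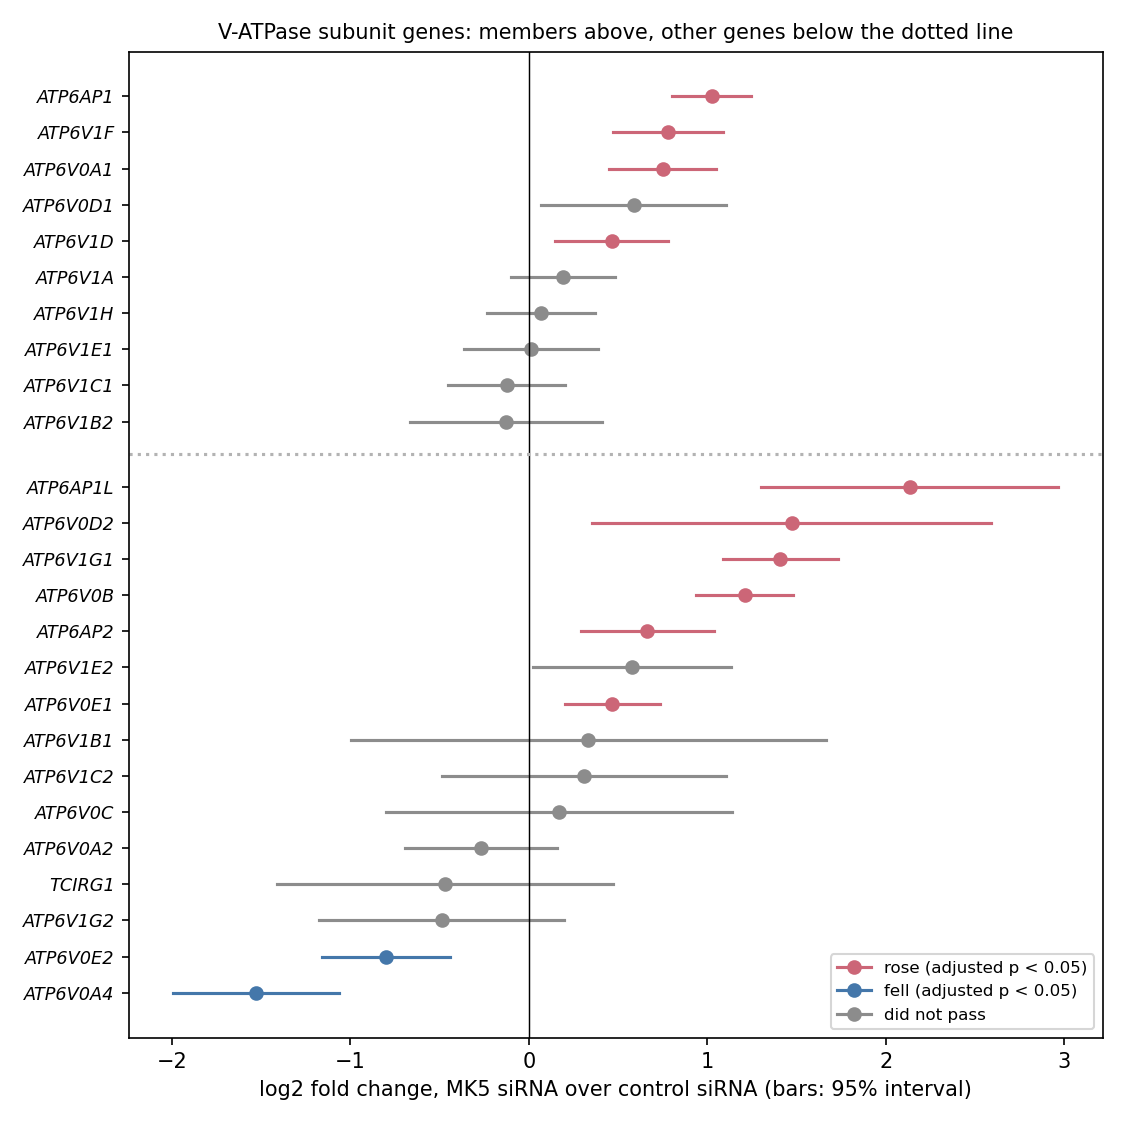
Log2 fold change of MK5 siRNA over control siRNA with its 95% interval for the 10 V-ATPase genes (above the dotted line) and the 15 other subunit genes tested (below), from edgeR. Colour marks genes that rose, fell or did not pass at an adjusted p of 0.05, with ATP6AP1 at 1.02 leading the upper group and ATP6V0A4 at −1.53 the lowest of all.

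Per kilobase of exon, the 10 genes differed widely in level, although a complete pump holds their products in fixed proportion. In the controls ATP6V1B2 was highest at 87.1 ± 29.9 CPM per kilobase, followed by ATP6V1E1 at 79.6, ATP6AP1 at 48.7, ATP6V1D at 47.3, ATP6V0D1 at 45.4, ATP6V1F at 44.3, ATP6V1H at 26.1, ATP6V1A at 17.8, ATP6V0A1 at 12.2 and ATP6V1C1 at 10.4 ± 1.74 (SD, n = 3). The first and second of this order overlapped between libraries, as did the third to the sixth each with its neighbour, and the last pair. With MK5 siRNA ATP6AP1 was highest at 99.0 CPM per kilobase, ahead of ATP6V1E1 at 80.2, ATP6V1B2 at 79.7, ATP6V1F at 76.1, ATP6V0D1 at 68.3, ATP6V1D at 65.2, ATP6V1H at 27.3, ATP6V0A1 at 20.5, ATP6V1A at 20.3 and ATP6V1C1 at 9.55. ATP6V1E1, ATP6V1B2 and ATP6V1F overlapped neighbour by neighbour, as did ATP6V0A1 and ATP6V1A, and the other neighbours were apart. Levels per kilobase depend on the transcript forms that the cells use, which gene counts do not give.

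The remaining subunit genes hold the other parts of the pump and the tissue-restricted forms of the subunits above. Of 16 listed, 15 passed the filter, ATP6V1G3 being the exception. Of these 6 rose, 2 fell and 7 did not pass, with a median log2 fold change of 0.33. Over all genes tested, 22.5% rose and 23.7% fell. ATP6V1G1, the common peripheral stalk partner of subunit E, had 49.0 ± 6.86 CPM in the controls and 130 ± 9.32 with MK5 siRNA (SD, n = 3), a 2.66-fold rise (log2 1.41 ± 0.14; edgeR adjusted p = 0.000501), while ATP6V1E1 itself was at 0.01. ATP6V0B, the c'' subunit of the rotating ring, went from 74.3 ± 8.56 to 172 ± 2.71 CPM (log2 1.21 ± 0.11; edgeR adjusted p = 0.000481). ATP6AP2, the accessory subunit also known as the prorenin receptor, rose by 0.66 ± 0.16 (edgeR adjusted p = 0.0128), and ATP6V0E1, a small V0 subunit, by 0.47 ± 0.11 (edgeR adjusted p = 0.0134).

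Other rises were at low counts. ATP6AP1L, a relative of ATP6AP1, went from 0.779 ± 0.356 to 3.44 ± 0.502 CPM (log2 2.13 ± 0.35; edgeR adjusted p = 0.00323). ATP6V0D2, the restricted form of subunit d, went from 0.554 ± 0.285 to 1.55 ± 0.555 CPM (log2 1.47 ± 0.47; edgeR adjusted p = 0.0391). Leaving out any library but control replicate 1 ended the ATP6V0D2 call (edgeR adjusted p from 0.0503 to 0.144), and that of ATP6V0E1 was lost without control replicate 2, control replicate 3 or MK5 siRNA replicate 3 (edgeR adjusted p of 0.0648, 0.0540 and 0.0573).

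The genes that fell both encode alternative forms of a subunit. ATP6V0A4, the form of subunit a best known from kidney intercalated cells, had 9.85, 7.26 and 7.498 CPM in the controls and 2.88, 2.68 and 2.96 CPM with MK5 siRNA. The groups were apart, and the log2 fold change of ATP6V0A4 was −1.53 ± 0.20 (edgeR adjusted p = 0.00130). ATP6V0E2, the second form of subunit e, went from 56.6 ± 6.86 to 32.5 ± 4.60 CPM (log2 −0.80 ± 0.15; edgeR adjusted p = 0.00546), with 12.8% of its exon bases shared with an antisense gene. The genes that did not pass were ATP6V1B1 (0.33), ATP6V1C2 (0.31), ATP6V1E2 (0.58), ATP6V1G2 (−0.49), ATP6V0A2 (−0.27), TCIRG1 (−0.47) and ATP6V0C (0.17), of which ATP6V1B1 and ATP6V1E2 were called as higher without the first replicate of both groups (0.59 ± 0.24 and 0.43 ± 0.13; edgeR adjusted p of 0.0337 and 0.00619). ATP6V0C encodes the c subunit that makes up most of the ring, yet it had only 0.421 ± 0.115 CPM in the controls and 0.472 ± 0.192 with MK5 siRNA, and 57.5% of its exon bases are shared with an annotated read-through gene on the same strand. ATP6V1B1 shares 62.4% of its exon bases with VAX2 on the same strand, and ATP6V1C2 shares 29.7% with PDIA6 on the opposite strand. What these overlaps do to the counts was not tested.

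Where several genes can fill 1 position of the pump, their shares of the summed CPM per kilobase were compared. ATP6V0A1 made up 54.3, 68.3 and 67.3% of subunit a transcripts in the controls and 81.6, 81.9 and 79.96% with MK5 siRNA. Every MK5 siRNA library was above every control, and the mean share was 17.9 percentage points higher. ATP6V0A4 went the other way, from 11.7 ± 2.13% to 3.08 ± 0.270%, as did ATP6V0A2, from 23.9 ± 5.80% to 15.1 ± 0.986% (SD, n = 3), and TCIRG1 stayed at or under 1.71% in every library. At subunit e, ATP6V0E1 went from 79.2 ± 2.89% to 90.2 ± 1.58% and ATP6V0E2 from 20.8% to 9.80%. For each of these shares other than TCIRG1 the groups did not overlap. Over all genes tested, the CPM of the MK5 siRNA libraries lay above every control in 30.6% and below every control in 29.8%. These are single-gene levels, not shares. Shares within a position sum to a whole, so they do not move independently. For the shares that did not overlap, the two-sided exact permutation test gave p = 0.1, the smallest that 3 libraries against 3 allow. After Benjamini-Hochberg adjustment over 17 shares this was 0.155, so none can pass a threshold of 0.05.

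At the other positions 1 gene supplied nearly everything in both groups. ATP6V1B2 made up 99.0 ± 0.356% of subunit B in the controls and 98.6 ± 0.638% with MK5 siRNA (SD, n = 3; exact permutation p = 0.4). ATP6V1C1 made up 98.6 and 98.1% of subunit C, ATP6V1E1 97.7 and 96.8% of subunit E, ATP6V1G1 97.0 and 99.1% of subunit G, and ATP6V0D1 99.5 and 99.1% of subunit d. Among these the groups did not overlap for subunits E, G and d, with mean differences of 2.12 percentage points or less. In the CPM of single genes such separation was common, at 30.6% of all genes upward and 29.8% downward. No background was computed for shares. At subunit a, with its 4 genes, scaling by coding length, or not by length at all, kept the direction of each share.

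**Figure D3:**
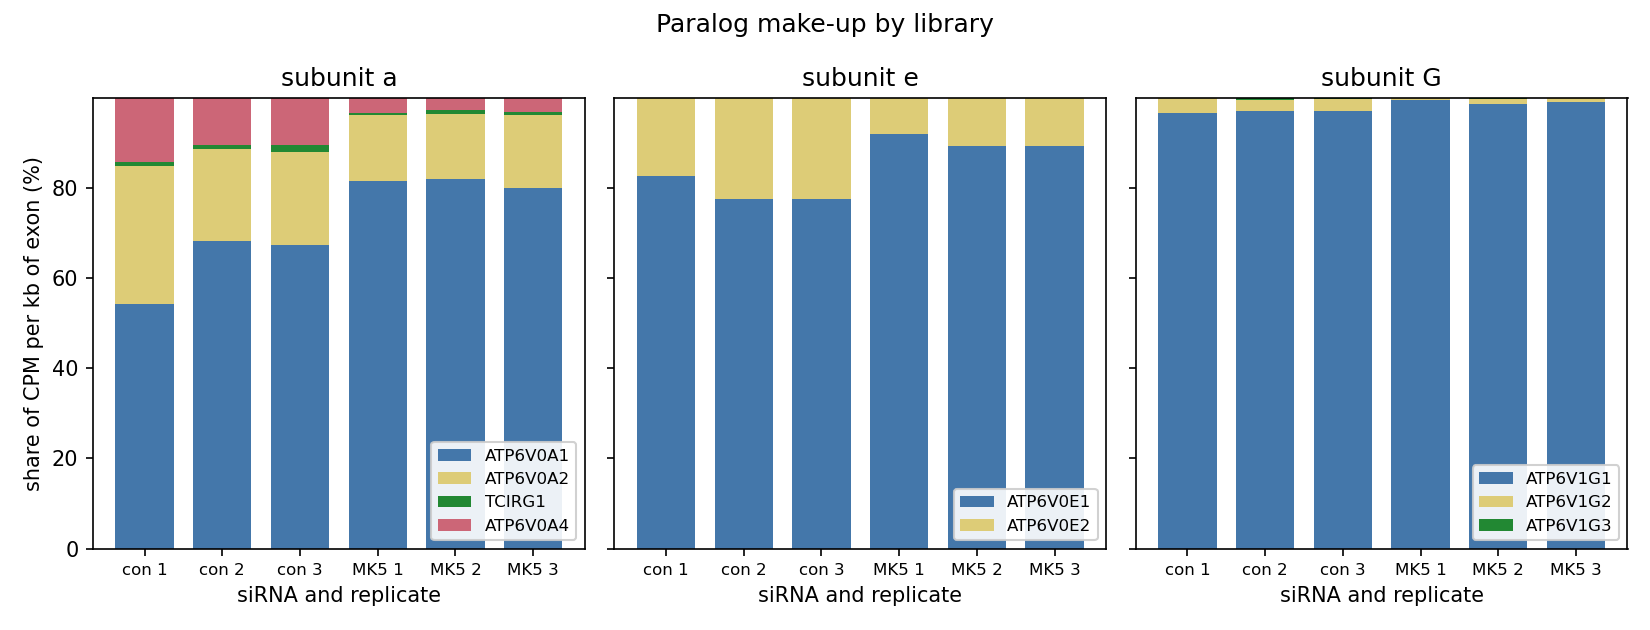
Share of each gene in the summed CPM per kilobase of exon of its position in the pump, in percent, for each control (con) and MK5 siRNA library. ATP6V0A1 takes 54.3 to 68.3% of subunit a in the controls and 79.96 to 81.9% with MK5 siRNA, and ATP6V0E1 takes a larger share of subunit e in every MK5 siRNA library.

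Promoter sequences are shown for ATP6AP1 and ATP6V0A1, and for the 4 subunit genes with an E-box core in the promoter window. ATP6AP1 and ATP6V0A1 were called in every setting run. ATP6V1F, also called in every setting run, is not shown. RefSeq promoters (GRCh38.p14, 250 bases before to 50 after the start) were found for 6 of the 10 genes. ATP6V1A, ATP6V1B2, ATP6V1C1 and ATP6V1H are named only. The 100 bases before the most upstream annotated start of ATP6AP1 (chrX:154428532-154428631, plus strand) and ATP6V0A1 (chr17:42458744-42458843, plus strand) are given 5′ to 3′, with CCAAT boxes (CCAAT or its complement ATTGG) and GC boxes (GGGCGG) in capitals. The capitals that end the ATP6AP1 stretch begin a GC box that runs past it.
ATP6AP1: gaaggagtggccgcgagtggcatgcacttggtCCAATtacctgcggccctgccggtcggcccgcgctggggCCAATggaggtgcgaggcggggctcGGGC
ATP6V0A1: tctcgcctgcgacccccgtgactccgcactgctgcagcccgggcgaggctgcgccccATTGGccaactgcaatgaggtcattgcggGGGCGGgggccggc

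ATP6AP1 held 2 CCAAT boxes, 113 and 74 bases before its RefSeq start, and ATP6V0A1 held 1, 77 bases before. Such letters are common: 34.6% of 35116 promoters of this length held CCAAT and 44.95% held GGGCGG on either strand, and 3 of the 6 genes with a promoter (ATP6V0A1, ATP6V1E1 and ATP6AP1) held each. ATP6V1E1 was not among the called genes, and ATP6V1F, called in every setting run, held neither CCAAT nor GGGCGG. The full CLEAR E-box, TCACGTGA, was found in 0.98% of all promoters, in 1 of the 6 (ATP6V0D1) and in 1 of the 12 other subunit genes with a promoter (ATP6V1G1), starting 60 and 59 bases before the RefSeq start. With 1 flank only, TCACGTG was in 3.71% of promoters, in ATP6V0D1 and in 3 of the 12 others (ATP6V1G1, ATP6V0B and ATP6V0E2), and the core CACGTG, which both longer words contain, was in 7.26% and in the same genes. The windows around the E-boxes of ATP6V0D1 (chr16:67481200-67481229, minus strand), ATP6V1G1 (chr9:114587698-114587727, plus strand), ATP6V0B (chr1:43974899-43974928, plus strand) and ATP6V0E2 (chr7:149872883-149872912, plus strand) are given with the core in capitals.
ATP6V0D1: gcccccttatggtCACGTGaggcgcttgcg
ATP6V1G1: tacgctgtgcggtCACGTGacaacgggggc
ATP6V0B: gggtCACGTGgtaccggcgcatCACGTGgg
ATP6V0E2: ttcccttctgcatCACGTGgggactgcgcc

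Of the 4 genes with an E-box core, ATP6V1G1 and ATP6V0B rose by 1.41 and 1.21, ATP6V0D1 stood at 0.59 without passing and ATP6V0E2 fell by 0.80. ATP6AP1, ATP6V1F, ATP6V0A1 and ATP6V1D held none of the E-box words in this window. The stress-response element TGATGNAA of ATF4 and CHOP (3.62% of promoters) and the cAMP response element TGACGTCA (1.85%) were found in none of these genes, searched on both strands. A match is a run of letters and not evidence of binding, which was not measured. Of the MiT/TFE genes, whose proteins bind CLEAR elements, TFEB (log2 0.51 ± 0.32; edgeR adjusted p = 0.230) and TFE3 (−0.25 ± 0.10; 0.0731) did not pass, MITF (54.1 ± 4.08 CPM in controls and 25.3 ± 3.45 with MK5 siRNA) fell (−1.09 ± 0.14; edgeR adjusted p = 0.00114), and TFEC rose from 0.434 ± 0.0367 to 1.29 ± 0.113 CPM (1.56 ± 0.26; edgeR adjusted p = 0.00314).

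Genes that build and regulate the pump moved both ways, 5 of 14 rising and 4 falling (median 0.19). The rises came to 3 when control replicate 3 or any 1 of the MK5 siRNA libraries was left out. Over all genes, 2064 to 2502 rose in those settings, against 3020 with all libraries. CCDC115 and TMEM199, which act in V-ATPase assembly in the endoplasmic reticulum and Golgi, fell by 1.43 ± 0.27 and 1.16 ± 0.24 on the log2 scale (edgeR adjusted p of 0.00539 and 0.00851), from 30.1 to 11.2 CPM and from 6.35 to 2.85 CPM, beside the rise of ATP6AP1, their partner in that step. The control libraries had 42.1, 25.1 and 22.9 CPM of CCDC115, the first again the highest. ROGDI, a subunit of the complex that reassembles V1 with V0, fell by 1.04 ± 0.23 (edgeR adjusted p = 0.00999). RNASEK, a small V0-associated protein, had the largest rise (1.47 ± 0.41, edgeR adjusted p = 0.0247). This was only from 2 to 5 counts in the controls to 11 to 13 with MK5 siRNA. The call was lost under DESeq2 (adjusted p = 0.0780) and with the replicate block (edgeR adjusted p = 0.0536). Overlap of RNASEK exons with other genes was not examined.

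Ion channels and exchangers of lysosomes and endosomes set the charge balance and acidity that the pump drives. Of 14 tested, 7 rose and 2 fell (median 1.01). Without control replicate 1, 10 rose (background 32.3%). The falls came to 1 without control replicate 2, control replicate 3, or MK5 siRNA replicate 1 or 2. Over all genes, 2103 to 2750 fell in those settings, against 3186 with all libraries. MCOLN3, a calcium-permeable channel, rose by 2.43 ± 0.21 (edgeR adjusted p = 0.000383), from 1.15 to 6.21 CPM. OSTM1, the partner of the lysosomal chloride-proton exchanger CLCN7, rose by 1.64 ± 0.19 (edgeR adjusted p = 0.000840), and the related exchanger CLCN6 by 1.51 ± 0.34 (edgeR adjusted p = 0.0109). Of 28 lysosomal hydrolases and membrane proteins, the setting in which the pump works, 16 rose and 1 fell (median 0.69). NEU1 (1.82 ± 0.12), GAA (1.73 ± 0.18) and CTSL (1.52 ± 0.11) rose most, with edgeR adjusted p of 0.000209, 0.000636 and 0.000235.

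The pump's nutrient-sensing partners, the Ragulator, Rag and mTORC1 genes, gave 4 rises and 3 falls among 17, with a median of 0.08. These counts varied with the library left out, as did those over all genes. There were 8 rises and 6 falls without control replicate 1 (background 32.3% and 32.1%). Without MK5 siRNA replicate 2 there were 2 and 2, beside 2064 rises and 2103 falls among 13677 genes. Without MK5 siRNA replicate 3 there were again 2 and 2, beside 2104 and 2162 among 13676 genes. The falls also came to 2 without control replicate 3 (2750 of 13642 genes fell) or MK5 siRNA replicate 1 (2606 of 13773). RRAGD rose from 0.199 ± 0.141 to 4.17 ± 0.883 CPM (log2 4.36 ± 0.52; edgeR adjusted p = 0.00100), and FLCN, whose product activates RagC and RagD, rose by 1.10 ± 0.11 (edgeR adjusted p = 0.000544). RRAGB rose by 0.94 ± 0.25 (edgeR adjusted p = 0.0194) and FNIP2, a partner of FLCN, fell by 0.91 ± 0.17 (edgeR adjusted p = 0.00551). The mitochondrial ATP synthase is the rotary relative of the V-ATPase that makes ATP. Of its 16 genes 1 rose and 6 fell (median −0.29), led by ATP5C1 at −1.28 ± 0.09, ATP5F1 at −1.10 ± 0.21, ATP5A1 at −0.85 ± 0.09 and ATP5G1 at −0.66 ± 0.18 (edgeR adjusted p of 0.000231, 0.00577, 0.000718 and 0.0201). The 6 falls became 9 without control replicate 1 (background 32.1%). They became 11 without the first replicate of both groups, where 5177 of 13690 genes fell over all. Without MK5 siRNA replicate 2 they became 3, where 2103 of 13677 genes fell over all. The single rise, ATP5D, was lost without control replicate 2 or any 1 of the MK5 siRNA libraries. It was also lost with no filter on low counts and with the replicate block (edgeR adjusted p = 0.0556). These lists are described by their counts beside the background of 22.5% rising and 23.7% falling, and no difference between lists was tested.

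**Figure D4:**
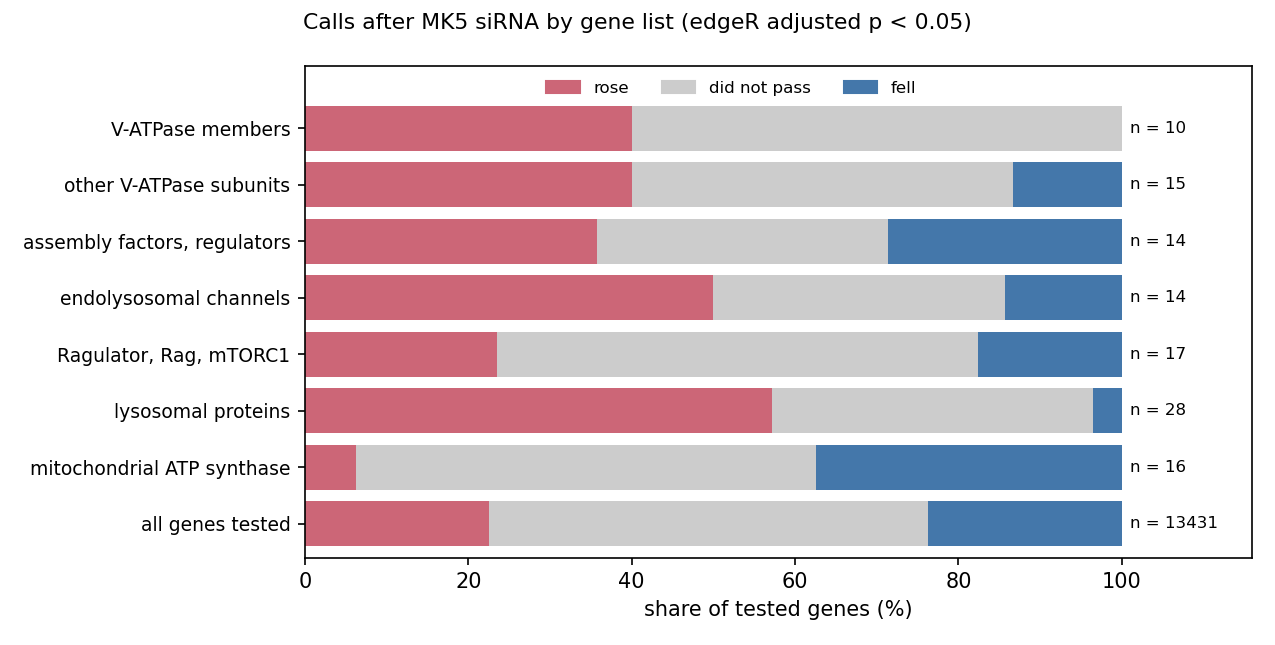
Share of the tested genes in each list that rose, did not pass or fell with MK5 siRNA (edgeR adjusted p under 0.05), in percent, with the number tested. Of the V-ATPase genes 4 of 10 rose and none fell, and the bar of all 13431 genes gives the background of 22.5% and 23.7%.

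The genes whose pattern over the 6 libraries lay nearest to the mean profile of the 10 V-ATPase genes were ZKSCAN4, TCP11L1 and XPNPEP1, at root mean square distances of 0.021, 0.024 and 0.026 in log2(CPM + 0.5) after centring, out of 10452 candidates with a mean of at least 5 CPM. The 10 genes themselves lay at 0.124 for ATP6V1D to 0.342 for ATP6V1B2 from their own mean. ZKSCAN4, TCP11L1 and XPNPEP1 were picked as the smallest distances, so that they lay nearer than the 10 genes was set by that choice. The 10 genes had unlike patterns: flat or led by control replicate 1 for ATP6V1B2, ATP6V1C1 and ATP6V1E1, and split by group for ATP6AP1, ATP6V1F and ATP6V0A1.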

How the data were processed

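RNA was sequenced from 6 libraries made with the TruSeq V2 kit, per the labels' protocols. The authors used the build GRCh37 and HTSeq 0.9.1, TopHat2 2.1.1, Trimmomatic 0.36 and FastQC, per the submitters' processing notes, which give no order. Neither annotation release nor strand setting is given in the sources used here. The deposited values are whole-number counts per gene made by the authors, although the table is named for CPM. The main test was therefore edgeR, as planned for counts, and not the limma test planned for normalized values. For a repeated symbol the gene of highest mean count was used.

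In R 4.3.3, edgeR 4.0.16 filtered genes (filterByExpr, least count 10, least total 15), scaled by TMM and ran the quasi-likelihood test without a block. Adjusted p is two-sided Benjamini-Hochberg over 13431 genes, with a threshold of 0.05. The members and lists were chosen with earlier results of these data known. All 10 members, MAPKAPK5, every tested subunit gene, up to 4 of the largest called changes in each list and the 3 nearest profiles were to be named; KCP, CLCN7, EIF2S1, ATP5D and some markers were added after their values were seen. Of the genes this rule names, 2 are not reported here. Exon lengths and overlaps came from GENCODE 29 (GRCh38), matched by identifier. DESeq2 1.42.0 and limma 3.58.1 (voom) gave alternatives, with other scalings, no filter, the replicate block and libraries left out. Scripts were tested on simulated data.

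The labels do not say what the replicates share, so p-values measure the spread between these libraries. Same-numbered libraries deviated together across genes (correlations of 0.258, 0.206 and 0.248), which by the rule used takes the numbers as pairs, although control replicate 2 and MK5 siRNA replicate 3, and the reverse, also correlated (0.151 and 0.182).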

Additional observations from a re-analysis of the deposited data

How the results depend on the processing

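ATP6V1F, ATP6V0A1 and ATP6AP1 were called as rising under every alternative run, and no member fell under any. With the replicate block 4 members rose and none fell, and among the other subunits 6 rose and 2 fell. The replicate block changed no call of a member or other subunit. With 1 library left out, 3 to 6 members and 4 to 6 other subunits rose. Over all genes these settings gave 2064 to 4455 rising and 2103 to 4419 falling. With the first replicate of both groups left out, 8 members rose, and 5195 genes rose and 5177 fell over all. Among single genes, 754 alternative values of 58 genes gave 696 with the same direction and call, 32 that lost a call, 10 that gained one and 16 that turned sign.

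Every turn of sign was in a gene without a call. Without control replicate 1, ATP6V1B2 turned to 0.20, ATP6V1C1 to 0.018 and ATP6V1H to −0.032. Over all single libraries left out they ran from −0.31 to 0.20, from −0.25 to 0.018 and from −0.032 to 0.11. With the first replicates left out they were 0.14 (called, edgeR adjusted p = 0.0297), 0.027 and −0.0086, and ATP6V0A2 was 0.0044. ATP6V1E1 was −0.0017 with DESeq2's size factors in edgeR, −0.0041 with no filter and −0.0077 in DESeq2, and ran from −0.10 to 0.20 with 1 library left out, against 0.25 (called) without the first replicates. ATP6V1B1 ran from −0.17 to 1.09 and ATP6V0C from −0.17 to 0.42 in the same way. The cause was not tested. ATP6V0C, ATP6V0D2, ATP6AP1L and RNASEK stood at a few CPM or less, so their values rest on low counts. Why they are low was not tested. Without scaling factors the median of all genes was 0.10.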
